A study of Mus musculus with 34 samples.

Results

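The genes of catecholamine synthesis and transport were followed through all RNA-seq groups of the series. They were chosen by name, with earlier results of these data known. They are 9 of the 37310 gene identifiers counted: Th, Gch1, Ddc, Dbh, Cyb561, Slc18a1, Slc18a2, Slc6a2 and Maoa. All 9 were found, and 7 had enough reads to be tested in each experiment. Slc18a2 and Slc6a2 were too low and are given as counts.

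Catecholamines are made from tyrosine in a chain of enzymes. Tyrosine hydroxylase (Th) makes L-DOPA with the cofactor tetrahydrobiopterin, whose own synthesis starts with GTP cyclohydrolase 1 (Gch1). Aromatic amino acid decarboxylase (Ddc) turns L-DOPA into dopamine, and dopamine beta-hydroxylase (Dbh) turns dopamine into noradrenaline inside the vesicle, using ascorbate that cytochrome b561 (Cyb561) keeps reduced. The vesicular monoamine transporters VMAT1 (Slc18a1) and VMAT2 (Slc18a2) load the vesicle, the noradrenaline transporter (Slc6a2) takes the released transmitter back up, and monoamine oxidase A (Maoa) breaks it down.

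The samples are CAD cells, a mouse catecholaminergic cell line of the central nervous system that stops dividing and grows processes when serum is taken away. The first experiment holds 2 libraries each of cells labelled mir-138 DKO and of wild-type (WT) cells, 1 day after serum removal and in 10% serum. The second holds 3 libraries each of WT cells 4 days after serum removal and in serum. The third holds 2 libraries each of cells labelled mir-138 DKO that received 3 nM of a miR-138 mimic, 3 nM of a miR-137 mimic or pUC19 DNA as the control, both 2 days after serum removal and in serum, and of DKO-labelled cells in serum with no transfection named. All cells of the third experiment, controls included, therefore carry the DKO label, and for its 2-day groups serum was removed 48 h after transfection. No control mimic was among the groups. Against pUC19, effects of a mimic's sequence and of RNA against plasmid transfection therefore cannot be told apart. Genes raised or lowered by a mimic below are so relative to pUC19 only. The 2 mimics, both given at 3 nM, were also compared with each other, which does not say which mimic accounts for a difference. The WT libraries of the 4-day group are WT by title and design text but DKO in their genotype field, and were analysed as WT. The labels do not say that the libraries of a group came from separate cultures or how many clones the DKO-labelled cells represent, so a p-value reflects only how these libraries vary, which may be technical.

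Libraries of the first experiment held 22359075 to 41505181 reads assigned to genes. Those of the second held 19900317 to 28631969, and those of the third 12740836 to 25582125. In the first experiment the hairpin gene Mir138-1 had more reads under the DKO label. It averaged 6.83 ± 1.3 reads per 1000000 assigned reads, scaled by TMM within each experiment (CPM), in DKO-labelled cells in serum. WT cells in serum had 0.622 ± 0.091 CPM (SD, n = 2 each). DKO-labelled serum cells of the third experiment with no transfection named averaged 1.48 CPM. Gene counts do not measure the mature miRNA and the deleted interval is not given, so they do not decide whether the locus was disrupted. Mir138-2 had no read in any library, so the label is used here as a name only. The cells were checked against marker genes. The sympathoadrenal markers, among them Th, Dbh, Phox2a, Hand2 and Chga, summed to 1100 to 1950 CPM across all libraries. In the first experiment they summed to 1290 to 1400 CPM in DKO-labelled cells and 1710 to 1760 CPM in WT cells in serum. At 1 day the sums were 1170 to 1220 CPM in DKO-labelled cells and 1720 to 1770 CPM in WT cells. Th was at 0 in the DKO-labelled serum libraries of that experiment. Chga, chromogranin A of dense-core vesicles, averaged 1.26 ± 0.43 CPM in DKO-labelled cells and 80.9 ± 1.7 CPM in WT cells in serum, and less than 1 CPM in every group of the third experiment, so the DKO-labelled cells largely lack that defining marker. The neuronal markers (Tubb3, Snap25, Syp, Stmn2, Nefl) summed to 40.6 to 41.9 CPM in DKO-labelled cells and 605 to 626 CPM in WT cells in serum, and to 62.7 to 71.7 CPM in DKO-labelled cells and 1100 to 1120 CPM in WT cells at 1 day. Of the markers for other cells, fibroblast genes summed to at most 37.8 CPM and astrocyte genes to at most 16.4 CPM, and Sox10 and Ptprc were at 0 in every group. The blood and endothelium genes (Ptprc, Pecam1, Hba-a1) summed to 10.3 to 14.9 CPM in DKO-labelled cells and 20.1 to 23.1 CPM in WT cells in serum, and to 21.7 to 22.3 CPM in DKO-labelled cells and 37.2 to 40.3 CPM in WT cells at 1 day. Fibroblast genes summed to 8.01 to 8.80 CPM in DKO-labelled cells and 1.46 to 1.49 CPM in WT cells in serum. These marker sums moved with genotype, serum removal or the mimics, and their part in the results below was not tested. In bulk RNA, fewer cells expressing a gene and less RNA per cell cannot be told apart.

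Sequences are shown for the agents and for 3 of the promoters. The mature miRNAs of the mimics differ in their seeds (bases 2 to 8, in capitals), so no seed is shared. Both sequences are from RefSeq.
mmu-miR-138-5p: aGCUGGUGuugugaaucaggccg
mmu-miR-137-3p: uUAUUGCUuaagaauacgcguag
Promoter windows reach from 250 bases before to 50 bases after the RefSeq start on GRCm38.p6, and 6 of the 9 genes have one (Th, Gch1, Ddc, Dbh, Slc18a2 and Maoa). The Th window (chr7:142899946-142900245, minus strand) and the Slc18a2 window (chr19:59260628-59260927, plus strand) are shown because both genes were near zero, and because each holds the palindrome TGACGTCA, the cyclic-AMP response element, in capitals.
Th promoter: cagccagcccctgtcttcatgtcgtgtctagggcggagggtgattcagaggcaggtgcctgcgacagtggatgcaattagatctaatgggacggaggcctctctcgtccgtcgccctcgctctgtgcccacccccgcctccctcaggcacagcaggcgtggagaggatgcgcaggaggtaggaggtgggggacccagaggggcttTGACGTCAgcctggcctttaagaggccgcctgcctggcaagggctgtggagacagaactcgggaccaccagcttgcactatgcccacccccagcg
Slc18a2 promoter: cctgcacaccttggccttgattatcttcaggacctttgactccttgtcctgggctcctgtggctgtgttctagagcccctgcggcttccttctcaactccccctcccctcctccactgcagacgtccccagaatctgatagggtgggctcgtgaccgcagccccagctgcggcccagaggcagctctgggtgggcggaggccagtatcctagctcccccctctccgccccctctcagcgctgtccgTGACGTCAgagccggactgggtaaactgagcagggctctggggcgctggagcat
The element starts 45 bases before the start of Th and 4 bases before the start of Slc18a2. On either strand it is in 1.79% of 32851 such windows, and in none of the other 4 genes with a window. The shorter TGACG, which lies within it, is in 20.8% of windows, and here also in those of Dbh, Gch1 and Maoa. The Dbh window (chr2:27165257-27165556, plus strand) is shown for 2 reasons. Dbh fell after serum removal in both genotypes of the first experiment, and it was lower with the miR-137 mimic than with pUC19. In pUC19 cells of the third experiment it did not fall at 2 days (log2 0.29, adjusted p = 0.192). In capitals are 3 copies of ATTA, the core bound by homeodomain proteins such as Phox2a. The copies start 157, 147 and 65 bases before the start. This core is common, in 58.0% of windows on either strand, and here also in those of Th, Ddc and Slc18a2.
Dbh promoter: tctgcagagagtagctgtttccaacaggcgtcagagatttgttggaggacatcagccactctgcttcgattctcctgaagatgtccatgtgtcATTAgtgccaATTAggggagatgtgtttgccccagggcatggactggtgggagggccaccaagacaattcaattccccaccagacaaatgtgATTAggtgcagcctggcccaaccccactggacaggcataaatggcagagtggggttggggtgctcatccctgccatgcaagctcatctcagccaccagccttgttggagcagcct

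Th, the rate-limiting enzyme, had at most 70 reads in any library. In the first experiment it had 0 and 0 reads in DKO-labelled cells in serum, against 55 and 70 reads (2.10 and 2.17 CPM) in WT cells in serum. At 1 day it had 14 and 17 reads (0.475 and 0.538 CPM) in DKO-labelled cells and 45 and 30 reads (1.99 and 1.11 CPM) in WT cells. WT libraries stood above DKO-labelled ones at both times, with no overlap. Set against 3 reads over the group, Th was at least 49.1-fold lower in DKO-labelled than in WT cells in serum. Th passed the filter on low counts through the groups where it was read, so this bound is given without a p-value. At 1 day the log2 difference was -1.60 ± 0.60 (SE, adjusted p = 0.0457). This call was lost without each of the 4 libraries compared (log2 -1.97 to -1.09). It was also lost with the replicate number as a block (adjusted p = 0.0635) and with unstranded counts (adjusted p = 0.0501). Within the DKO-labelled cells Th was at least 11.7-fold higher at 1 day than in serum (31 reads against 0), for the same reason without a p-value. In WT cells the 1-day libraries were not past the threshold against serum (log2 -0.46, adjusted p = 0.547).

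In the second experiment Th had 28, 5 and 3 reads in WT cells at 4 days, against 32, 46 and 21 reads in serum. One 4-day library lay within the range of the serum libraries and the other two below it. The difference missed the threshold (log2 -1.42 ± 0.77, adjusted p = 0.116), and passed it without the 4-day library of 28 reads (log2 -3.03, adjusted p = 0.00538). In the third experiment Th had 13 and 9 reads with the miR-138 mimic, 5 and 3 with the miR-137 mimic and 10 and 8 with pUC19 at 2 days. In serum it had 2 and 0 reads with the miR-138 mimic, 1 and 0 with the miR-137 mimic, 1 and 1 with pUC19, and 2 and 6 with no transfection named. Serum libraries were therefore lower than those at 2 days for pUC19, with 18 reads against 2, a ratio of 8.83 (exact 95% counting interval 2.11 to 78.5, adjusted p = 0.00481). That call was lost without the first pUC19 serum library (log2 2.76). Th passed the filter on low counts here through libraries at 2 days, so the call is a description only. Neither mimic differed from pUC19 past the threshold at either time, and for the miR-138 mimic at 2 days the ratio of reads was 1.28 (0.655 to 2.53).

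**Figure D1:**
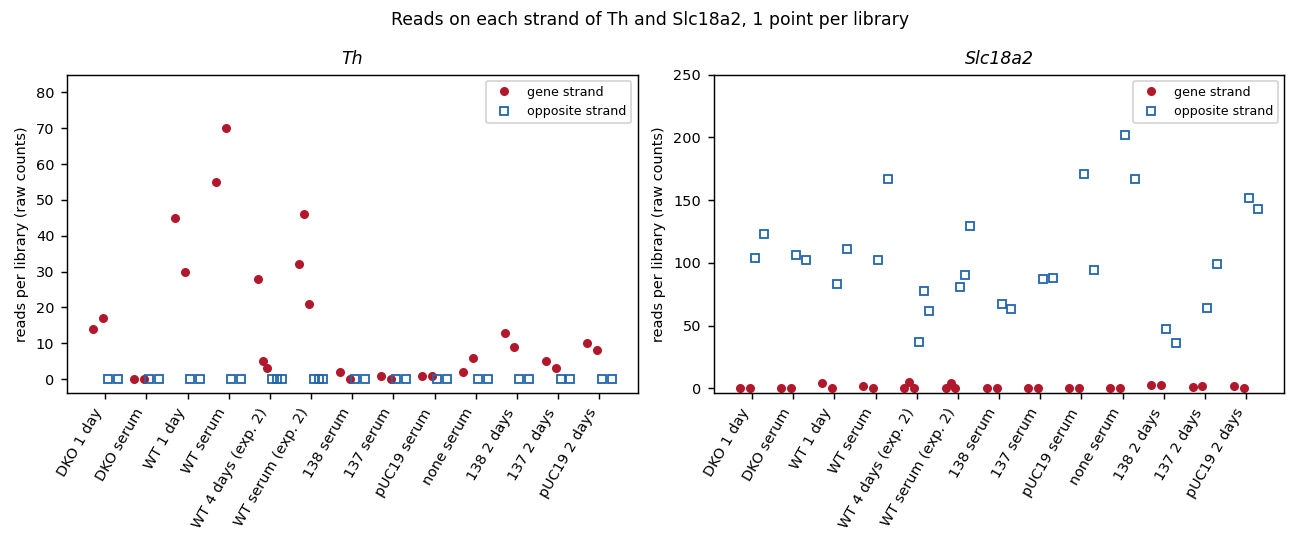
Raw reads per library (vertical axis) for Th and Slc18a2 in all 28 RNA-seq libraries, with reads on the gene's own strand and on the opposite strand as separate points. Th reached at most 70 reads, all on its own strand, while Slc18a2 had 0 to 5 reads on its own strand and 36 to 202 on the opposite one.

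Gch1, which opens cofactor synthesis, was read in every library and differed by at most 1.56-fold in any comparison. It had 53.0 and 56.5 CPM in DKO-labelled cells and 82.7 and 83.7 CPM in WT cells in serum, and 69.2 and 69.0 CPM in DKO-labelled cells and 87.6 and 81.7 CPM in WT cells at 1 day. DKO-labelled libraries were the lower ones at both times. The log2 difference was -0.60 ± 0.08 for serum (adjusted p = 1.95e-05). It was -0.29 ± 0.08 for 1 day (adjusted p = 0.00609), and that call was lost without the first WT library (adjusted p = 0.152) or the second DKO-labelled library at 1 day (adjusted p = 0.0826). Serum removal raised it in DKO-labelled cells (log2 0.34, adjusted p = 0.00287), while in WT cells 1 day gave 0.02 (adjusted p = 0.829) and 4 days 0.21 (adjusted p = 0.067). The 4-day difference passed with the replicate number as a block (adjusted p = 0.0357), without the first serum library (adjusted p = 0.0382) and without the second 4-day library (adjusted p = 0.0237). The 4-day libraries had 116, 96.5 and 111 CPM and the serum libraries 103, 83.8 and 92.5 CPM, so the groups overlapped.

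With the miR-137 mimic at 2 days Gch1 had 75.3 and 73.4 CPM, against 52.2 and 48.4 CPM with pUC19, a log2 difference of 0.56 ± 0.09 (adjusted p = 3e-05). In serum the mimic gave 66.0 and 55.7 CPM and pUC19 61.3 and 67.6 CPM, which overlapped, and the mimic's effect was larger at 2 days by 0.64 ± 0.12 (adjusted p = 0.000848). The miR-138 mimic gave 52.2 and 59.2 CPM in serum (log2 -0.20 against pUC19, adjusted p = 0.0426), a call lost without one library of either group (adjusted p up to 0.353), and 44.8 and 50.7 CPM at 2 days. pUC19 itself was above cells with no transfection named, which had 40.3 and 42.9 CPM (log2 0.63 ± 0.09, adjusted p = 3.12e-05). In pUC19 cells Gch1 was lower at 2 days than in serum (log2 -0.35 ± 0.09, adjusted p = 0.00172), the opposite direction to the 1-day rise in DKO-labelled cells of the first experiment; the days and libraries differ.

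Ddc, the decarboxylase, rose with the miR-138 mimic and fell with the miR-137 mimic. With the miR-138 mimic at 2 days it had 19.0 and 20.8 CPM, against 3.31 and 2.79 CPM with pUC19, and with the miR-137 mimic 0.543 and 0.363 CPM, against the same controls. In serum it had 7.36 and 7.37 CPM with the miR-138 mimic and 1.86 and 1.57 CPM with the miR-137 mimic, against 5.41 and 4.63 CPM with pUC19. At each time the 3 groups did not overlap. The miR-138 mimic raised Ddc by a log2 value of 2.70 ± 0.15 at 2 days (6.48-fold, adjusted p = 1.17e-11) and 0.54 ± 0.15 in serum (adjusted p = 0.0037). The miR-137 mimic lowered it, by log2 -2.75 ± 0.31 at 2 days (adjusted p = 6.21e-07) and -1.55 ± 0.20 in serum (adjusted p = 3.89e-06). Against each other at 2 days the mimics differed by 5.44 ± 0.22 (43.4-fold, adjusted p = 1.16e-13).

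The effect of the miR-138 mimic was larger at 2 days than in serum by 2.16 ± 0.21 on the log2 scale (adjusted p = 4.72e-07). That of the miR-137 mimic was more negative at 2 days by -1.19 ± 0.41 (adjusted p = 0.0478), a call that held under 4 of 14 settings. It was lost without 6 of the libraries in turn, with DESeq2 (adjusted p = 0.117), without the low-count filter (adjusted p = 0.0675), with unstranded counts (adjusted p = 0.0569) and with the compared libraries alone (adjusted p = 0.0701). At 2 days fibroblast markers summed to 36.5 to 37.8 CPM with the miR-138 mimic and 24.0 to 26.2 CPM with pUC19. Neuronal markers summed to 247 to 262 CPM with the miR-137 mimic and 42.4 to 57.7 CPM with pUC19. Without a mimic Ddc was lower after serum removal, at 2 days with pUC19 by log2 -0.73 ± 0.18 (adjusted p = 0.00164).

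**Figure D2:**
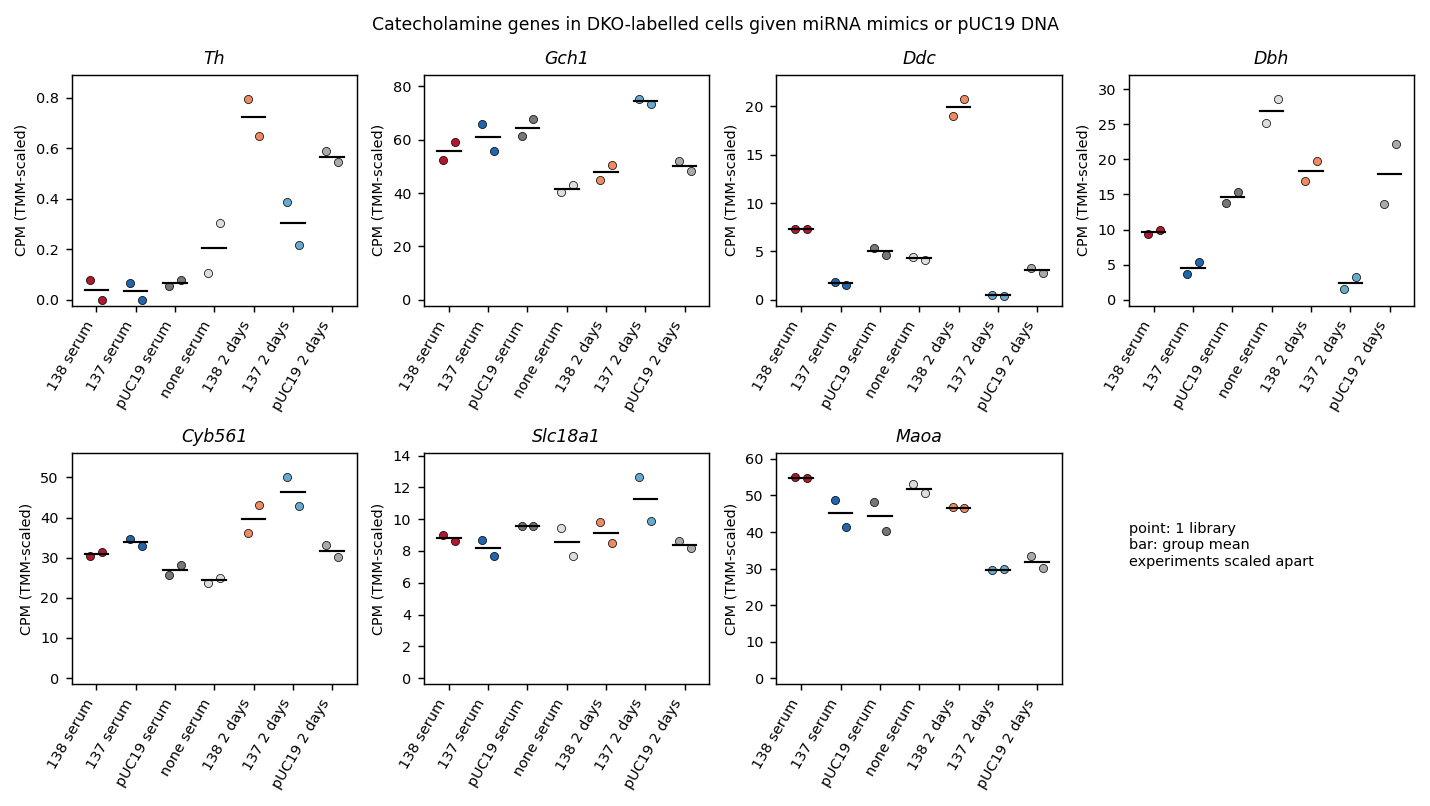
Levels of 7 of the catecholamine genes in the third experiment, in CPM on linear axes that include 0, with a point for each library and a short line for the mean of 2. The axis names each mimic by its miRNA number. Ddc stood at 19.0 and 20.8 CPM with the miR-138 mimic at 2 days and at 0.543 and 0.363 CPM with the miR-137 mimic, either side of pUC19.

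By genotype, Ddc had 5.73 and 5.94 CPM in DKO-labelled cells and 1.79 and 2.82 CPM in WT cells in serum, and 2.00 and 2.15 CPM in DKO-labelled cells and 0.487 and 0.926 CPM in WT cells at 1 day. DKO-labelled libraries were higher at both times, with no overlap. The log2 difference was 1.33 ± 0.34 for serum (adjusted p = 0.00578) and, for 1 day, 1.53 ± 0.40 (adjusted p = 0.0063). Without the first WT library of the same time these calls missed the threshold (adjusted p = 0.0671 for serum, 0.0635 for 1 day). Serum removal for 1 day lowered it in DKO-labelled cells (log2 -1.49 ± 0.34, adjusted p = 0.00299) and in WT cells (log2 -1.69 ± 0.40, adjusted p = 0.00369), and the WT call was lost without the second serum library (adjusted p = 0.0515).

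At 4 days Ddc had 15, 7 and 1 reads in WT cells, against 12, 63 and 31 reads in serum, so the groups overlapped at the lowest serum library. The log2 difference was -2.10 ± 0.83 (adjusted p = 0.0358). It missed the threshold without replicate 2 or 3 of either group (adjusted p = 0.0688 to 0.193) and with the replicate number as a block (adjusted p = 0.0579).

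Dbh, the last enzyme on the way to noradrenaline, was lower in DKO-labelled than WT cells, lower after serum removal in WT cells, and lower with the miR-137 mimic. It had 6.25 and 5.55 CPM in DKO-labelled cells and 65.7 and 73.0 CPM in WT cells in serum, and 2.48 and 1.87 CPM in DKO-labelled cells and 12.8 and 10.9 CPM in WT cells at 1 day. The order of the 4 groups did not overlap anywhere, with WT cells in serum at the top and DKO-labelled cells at 1 day at the bottom. Dbh was lower in DKO-labelled than WT cells by log2 -3.55 ± 0.15 in serum (11.7-fold, adjusted p = 1.38e-10) and -2.44 ± 0.17 at 1 day (5.43-fold, adjusted p = 3.98e-08). At 1 day it was lower than in serum by -1.45 ± 0.18 in DKO-labelled cells (adjusted p = 2.31e-05) and by -2.56 ± 0.14 in WT cells (adjusted p = 1.62e-08). The difference between these falls was 1.11 ± 0.23 (adjusted p = 0.00782), lost without the second WT serum library (adjusted p = 0.059) or the first DKO-labelled 1-day library (adjusted p = 0.0854).

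The second experiment gave Dbh 4.45, 5.62 and 7.00 CPM in WT cells at 4 days and 54.0, 51.1 and 59.5 CPM in serum. All 4-day libraries were below all serum libraries, by log2 -3.26 ± 0.16 (9.57-fold, adjusted p = 7.28e-10).

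In the third experiment Dbh had 9.41 and 9.93 CPM with the miR-138 mimic and 3.66 and 5.42 CPM with the miR-137 mimic in serum, against 13.8 and 15.4 CPM with pUC19. At 2 days it had 16.9 and 19.8 CPM with the miR-138 mimic and 1.47 and 3.27 CPM with the miR-137 mimic, against 13.6 and 22.2 CPM with pUC19. The miR-137 libraries were lowest at both times, and the miR-138 libraries were below pUC19 in serum and within its range at 2 days. The miR-137 mimic lowered Dbh by log2 -1.68 ± 0.24 in serum (adjusted p = 9.72e-06) and -2.89 ± 0.27 at 2 days (7.40-fold, adjusted p = 4.8e-08). The miR-138 mimic gave -0.59 ± 0.19 in serum (adjusted p = 0.0141), a call lost with DESeq2 (adjusted p = 0.107), without the first mimic library (adjusted p = 0.0555) and without the second pUC19 library (adjusted p = 0.0845), and 0.04 ± 0.19 at 2 days (adjusted p = 0.864). Transfection with pUC19 was itself associated with lower Dbh, 13.8 and 15.4 CPM against 25.2 and 28.6 CPM with no transfection named (log2 -0.89 ± 0.18, adjusted p = 0.00113). In pUC19 cells 2 days without serum gave 0.29 ± 0.19 against serum (adjusted p = 0.192), which passed without the first pUC19 library at 2 days (0.61, adjusted p = 0.00496). DKO-labelled cells in serum averaged 5.90 CPM of Dbh in the first experiment, and 26.9 CPM in the third with no transfection named. The level under this label thus differed between experiments, and the genotype folds of Dbh and Th rest on the first experiment alone. The experiments were not tested against each other, and the days differ.

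Cyb561, which hands electrons to vesicular ascorbate, moved opposite to Dbh after serum removal in WT cells. In the first experiment it had 28.5 and 27.6 CPM in DKO-labelled cells and 81.5 and 82.7 CPM in WT cells at 1 day, and 26.0 and 26.3 CPM in DKO-labelled cells and 49.4 and 45.9 CPM in WT cells in serum. WT libraries were higher at both times. DKO-labelled cells were lower by log2 -1.55 ± 0.09 at 1 day (adjusted p = 3.48e-09) and -0.87 ± 0.09 in serum (adjusted p = 2.15e-06). Serum removal for 1 day raised Cyb561 in WT cells (0.79 ± 0.09, adjusted p = 6.32e-06), and gave 0.10 ± 0.09 in DKO-labelled cells (adjusted p = 0.402), a difference of -0.69 ± 0.12 between the genotypes (adjusted p = 0.00315).

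After 4 days WT cells had 160, 122 and 154 CPM of Cyb561, against 69.5, 56.6 and 63.0 CPM in serum, with no overlap (log2 1.21 ± 0.11, adjusted p = 3.07e-07). In DKO-labelled cells at 2 days it had 36.1 and 43.2 CPM with the miR-138 mimic and 50.1 and 42.9 CPM with the miR-137 mimic, against 33.1 and 30.2 CPM with pUC19. Both mimics were above pUC19, by 0.32 ± 0.10 for miR-138 (adjusted p = 0.00633) and 0.55 ± 0.10 for miR-137 (adjusted p = 9.26e-05). The miR-138 call was lost without the second mimic library (adjusted p = 0.147) or the second pUC19 library (adjusted p = 0.0583). In serum the miR-137 mimic gave 34.8 and 32.9 CPM, against 25.8 and 28.1 CPM with pUC19 (log2 0.34 ± 0.10, adjusted p = 0.00926), a call lost without the first mimic library (adjusted p = 0.0791) or the first pUC19 library (adjusted p = 0.102).

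**Figure D3:**
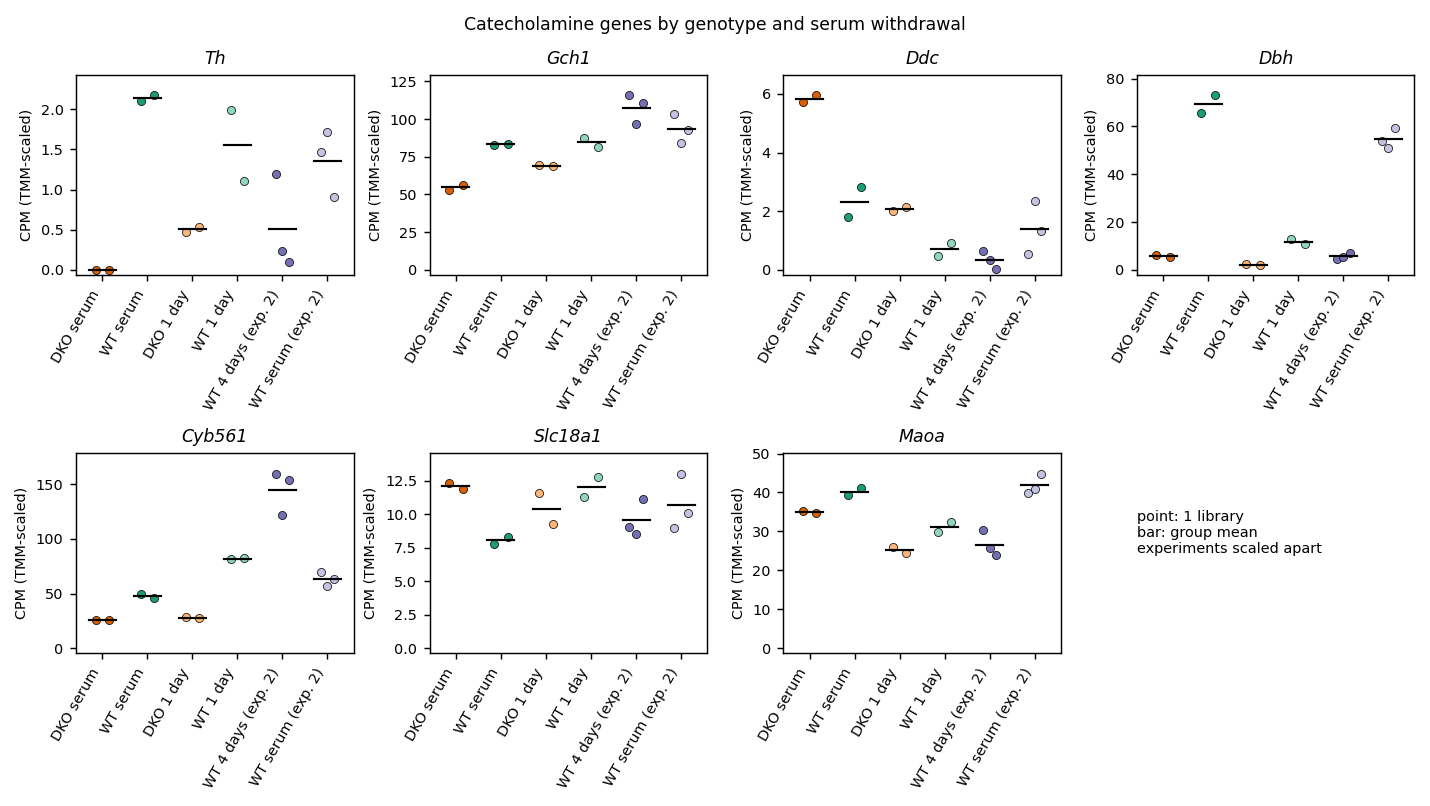
Levels of 7 of the catecholamine genes in the first and second experiments, in CPM on linear axes that include 0, with a point for each library and a short line for the group mean (2 libraries in the first experiment, 3 in the second). Dbh stood at 65.7 and 73.0 CPM in WT cells in serum and was at most 12.8 CPM in every other group of the first experiment, while Cyb561 was highest in WT cells after serum removal.

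Slc18a1 (VMAT1) was the vesicular transporter read in these cells, and its level stayed in a narrow range. Over all 28 libraries it ranged between 7.68 and 13.0 CPM. In serum it had 12.3 and 11.9 CPM in DKO-labelled cells and 7.81 and 8.34 CPM in WT cells, and at 1 day 11.6 and 9.27 CPM in DKO-labelled cells and 11.3 and 12.8 CPM in WT cells. The groups were apart in serum and overlapped at 1 day. DKO-labelled cells were higher in serum by log2 0.59 ± 0.17 (adjusted p = 0.012), a call lost without the first WT serum library (adjusted p = 0.0759). In WT cells 1 day raised it by 0.58 ± 0.17 (adjusted p = 0.0138), lost without either WT serum library or the second 1-day library (adjusted p = 0.058 to 0.114). The difference between genotypes in that response was -0.80 ± 0.24 (adjusted p = 0.0486). This call was lost under 6 of the settings that leave a library out. It was also lost with DESeq2 (adjusted p = 0.0537) and with unstranded counts (adjusted p = 0.0603). The miR-137 mimic at 2 days gave 12.7 and 9.88 CPM, against 8.62 and 8.16 CPM with pUC19 (log2 0.42 ± 0.15, adjusted p = 0.0257), which was lost with DESeq2 (adjusted p = 0.077) and without 3 of the 4 libraries (adjusted p = 0.0578 to 0.326).

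Slc18a2 (VMAT2) had 26 reads on its own strand in all, in 9 of the 28 libraries, with at most 5 in any. Of these, 6 were with the miR-138 mimic, 3 with the miR-137 mimic and 2 with pUC19 at 2 days; 5 were in WT cells at 4 days and 10 in other WT libraries. The DKO-labelled cells of the first experiment had 0 at both times, and no fold is given at counts this low. On the opposite strand 2855 reads were assigned to the gene, 99.1% of its reads, and 36 to 202 in each library. Counting without strand would therefore have put Slc18a2 at 30 to 202 reads per library. The RefSeq table lists no gene that overlaps it, and its neighbours are Kcnk18 and Pdzd8. For each of the other members with reads, at most 1.46% lay on the opposite strand. By the RefSeq table Slc18a1 overlaps Atp6v1b2, Ddc overlaps Gm51937 and 1700042O10Rik, and Gch1 overlaps Gm18811, so how reads in shared parts were assigned is uncertain.

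Slc6a2 (the noradrenaline transporter) had 0 reads in all 28 libraries on either strand. In WT cells in serum a count of 0 allows up to 0.0513 CPM over the group in the first experiment, taking 3 counts as the floor, which covers counting error only.

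Maoa, which oxidises noradrenaline and serotonin, fell after serum removal in WT, DKO-labelled and pUC19-transfected cells. In the first experiment it had 25.9 and 24.5 CPM in DKO-labelled cells at 1 day, against 35.2 and 34.8 CPM in serum (log2 -0.48 ± 0.10, adjusted p = 0.00163), and 29.8 and 32.4 CPM in WT cells at 1 day, against 39.3 and 41.1 CPM in serum (-0.37 ± 0.10, adjusted p = 0.00842). The groups did not overlap. The WT call was lost without the second serum library (adjusted p = 0.067) or the first 1-day library (adjusted p = 0.0842). At 4 days WT cells had 30.4, 25.7 and 23.9 CPM, against 39.9, 40.8 and 44.8 CPM in serum (-0.65 ± 0.12, adjusted p = 0.000284), and pUC19 cells had 33.4 and 30.2 CPM at 2 days, against 48.3 and 40.2 CPM in serum (-0.48 ± 0.09, adjusted p = 0.000128). By genotype the log2 difference was -0.20 ± 0.10 for serum (adjusted p = 0.124) and, for 1 day, -0.30 ± 0.10 (adjusted p = 0.024). The 1-day call was lost without each of the 4 libraries (log2 -0.35 to -0.22) and without the low-count filter (adjusted p = 0.0798).

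Maoa was higher with the miR-138 mimic than with pUC19. At 2 days it had 46.8 and 46.5 CPM with the miR-138 mimic and 29.5 and 29.8 CPM with the miR-137 mimic, against 33.4 and 30.2 CPM with pUC19. The miR-138 libraries were above both other groups, which lay close together. The log2 difference from pUC19 was 0.55 ± 0.09 for miR-138 (adjusted p = 2.8e-05) and -0.10 ± 0.10 for miR-137 (adjusted p = 0.408). In serum the miR-138 mimic gave 55.1 and 54.7 CPM, against 48.3 and 40.2 CPM with pUC19 (0.30 ± 0.08, adjusted p = 0.00462), which was lost without the second pUC19 library (adjusted p = 0.0871).

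**Figure D4:**
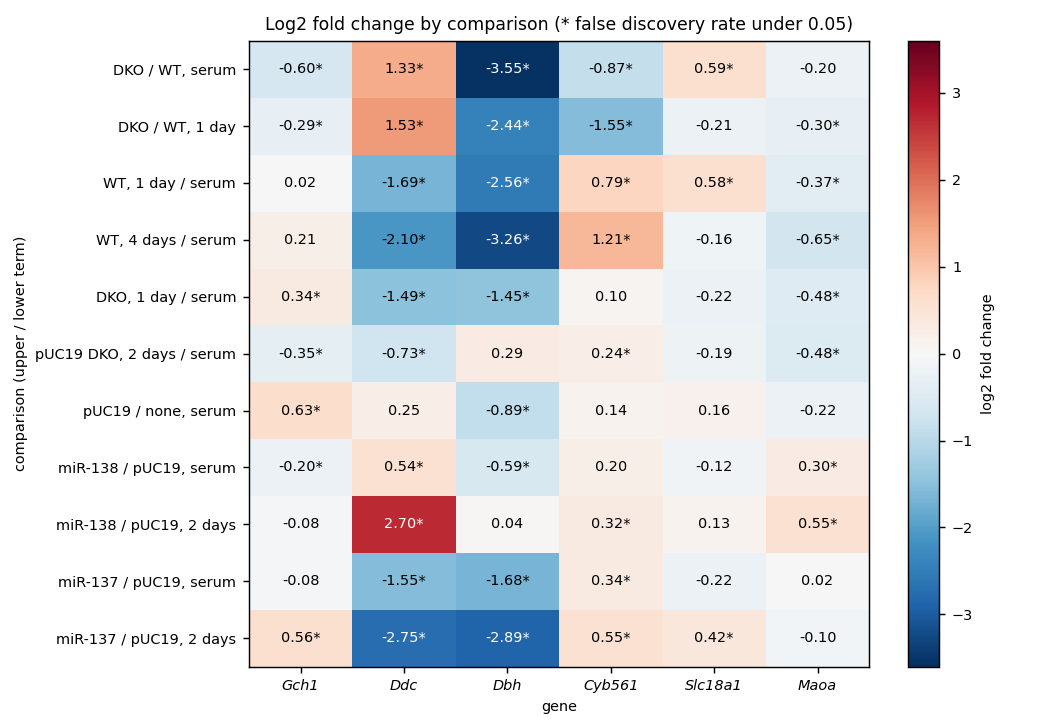
Log2 fold changes of Gch1, Ddc, Dbh, Cyb561, Slc18a1 and Maoa (columns) over 11 comparisons (rows), with the colour giving the sign and size and an asterisk marking an adjusted p under 0.05. Dbh was lower in DKO-labelled than WT cells and lower with the miR-137 mimic than with pUC19, while Ddc went up with the miR-138 mimic and down with the miR-137 mimic.

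The number of members called is set beside the share of all genes called in the same comparison, and in most comparisons that share was large. Between DKO-labelled and WT cells 6 of 7 members tested passed in serum, where 40.7% of all 13630 genes tested did, and 6 of 7 at 1 day, where 44.9% did. After 1 day without serum 5 of 7 passed in WT cells, where 40.7% of genes did, and 5 of 7 in DKO-labelled cells, where 40.3% did. For the difference between genotypes in that response 4 of 7 passed, against 9.72% of genes. At 4 days 4 of 7 passed, against 70.9% of 13283 genes. The members were chosen with earlier results of these data known. In these counts Th passed the filter on low counts partly through the groups where it was read. The counts are therefore a description.

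With the mimics the miR-138 comparison called 4 of 7 members in serum, where 56.0% of 12655 genes passed, and 3 of 7 at 2 days, where 62.0% did. The miR-137 comparison called 3 of 7 in serum, where 45.6% did, and 5 of 7 at 2 days, where 42.7% did. Between the 2 mimics 3 of 7 were called in serum, against 63.4%, and 5 of 7 at 2 days, against 61.6%. pUC19 against no named transfection called 2 of 7, against 26.2%. pUC19 at 2 days against serum called 5 of 7, against 59.7%, among them Th, which passed the filter through libraries at 2 days. The change of the miR-138 effect with day called 1 of 7, against 27.8%, and that of the miR-137 effect 4 of 7, against 23.3%. Both mimics were set against the same pUC19 libraries, and both serum-removal and genotype comparisons of the first experiment share groups, so their values are not independent of each other.

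Genes around the pathway were described by list, beside the calls over all genes tested. In DKO-labelled against WT cells in serum 2618 of 13630 genes were higher and 2928 lower, and in WT cells at 4 days 4805 of 13283 were higher and 4612 lower. Of 12655 genes, the miR-138 mimic against pUC19 gave 3631 higher and 3458 lower in serum and 3914 higher and 3937 lower at 2 days, and the miR-137 mimic 2922 higher and 2848 lower in serum. Of 6 genes that make, recycle or regulate tetrahydrobiopterin, 3 were higher and none lower in DKO-labelled cells in serum (median log2 0.29, against -0.01 over all genes). Among these were Gchfr, which regulates GTP cyclohydrolase (log2 0.96, adjusted p = 4.24e-06), and Spr, sepiapterin reductase (0.38, adjusted p = 0.00974). At 4 days 2 of the 6 were higher and 3 lower in WT cells (median -0.75, against 0.04), among them Gchfr at -1.74 (adjusted p = 1.49e-06), Spr at -1.23 (adjusted p = 9.48e-07) and Qdpr, which regenerates the cofactor, at 1.27 (adjusted p = 1.81e-07).

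Of 6 breakdown genes, 4 were tested in DKO-labelled against WT cells in serum, with 3 higher and 1 lower. Aldh2, an aldehyde dehydrogenase, was higher (1.58, adjusted p = 3.17e-10). Maob, the lower one, had 1 read in DKO-labelled cells and 131 in WT cells in serum. It passed the filter on low counts through the WT groups, so no ratio is given and its call is a description. With the miR-137 mimic Aldh2 was lower than with pUC19 in serum (-1.60, adjusted p = 5.96e-12) and at 2 days (-1.26, adjusted p = 7.15e-11), and 4 days without serum raised it in WT cells (0.69, adjusted p = 8.13e-06).

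Of 6 other monoamine and acetylcholine transporters, Slc18a3 was not among the identifiers and 2 were tested, both lower in DKO-labelled than WT cells in serum. Slc29a4, a plasma membrane monoamine transporter, had 98 reads in DKO-labelled cells and 2834 in WT cells (log2 -5.11, adjusted p = 6.49e-12). Slc18b1, a vesicular polyamine transporter, had 5 reads in DKO-labelled cells and 186 in WT cells in serum. It passed the filter on low counts through the WT groups, so no fold is given. None of the list was tested in the third experiment. Among 6 other synthesis genes, Tph2, the neuronal tryptophan hydroxylase, had 0 reads in DKO-labelled cells and 136 in WT cells in serum. Tph2 likewise passed the filter through the WT groups, so no fold is given.

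Among 7 genes of ascorbate and copper supply, 2 were higher and 1 lower in DKO-labelled cells in serum. The paralogues of Cyb561 went both ways, with Cyb561a3 higher (0.96, adjusted p = 0.000694) and Cyb561d1 lower (-1.30, adjusted p = 0.00484). With the miR-138 mimic 4 of 7 were higher than with pUC19 at 2 days, among them the copper transporters Slc31a1 (0.53, adjusted p = 2.82e-07) and Atp7a (0.47, adjusted p = 0.000135), where 62.0% of all genes were called in either direction. Of 9 receptors 2 or 3 were tested. The alpha-2B adrenergic receptor gene Adra2b was higher in DKO-labelled than WT cells in serum (0.80, adjusted p = 4.28e-05), and lower with both mimics than with pUC19 in serum, by -1.65 for miR-138 (adjusted p = 1.34e-10) and -1.50 for miR-137 (adjusted p = 1.89e-09).

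Of 11 transcription factors of noradrenergic cells 9 were tested, and in DKO-labelled cells in serum 1 was higher and 6 lower than in WT cells (median log2 -0.34, against -0.01 over all genes). Hand2 was lower (-0.36, adjusted p = 0.000172) and Tfap2b higher (0.40, adjusted p = 0.000861). With the miR-138 mimic in serum 3 were higher and 5 lower than with pUC19, including Gata2 (-0.72, adjusted p = 5.5e-09) and Hand2 (-0.61, adjusted p = 2.65e-08). With the miR-137 mimic in serum 5 were higher and 1 lower, including Gata2 (0.57, adjusted p = 1.87e-07) and Hand2 (0.52, adjusted p = 3.52e-07). At 2 days Gata2 was lower with the miR-138 mimic (-0.97, adjusted p = 1.66e-10) and higher with the miR-137 mimic (0.64, adjusted p = 7.43e-08) than with pUC19.

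The levels of each gene were ordered over the 13 group means, which span 3 experiments with different libraries and were not tested across them. Dbh was highest in WT cells in serum (69.3 ± 5.1 and 54.8 ± 4.3 CPM) and lowest in DKO-labelled cells at 1 day (2.17 ± 0.43 CPM) and with the miR-137 mimic at 2 days (2.37 ± 1.3 CPM), which did not differ beyond their spread. Ddc was highest with the miR-138 mimic at 2 days (19.9 ± 1.3 CPM), followed by that mimic in serum (7.37 ± 0.0078 CPM) and DKO-labelled cells in serum (5.84 ± 0.15 CPM). Cyb561 was highest in WT cells at 4 days (145 ± 20 CPM) and at 1 day (82.1 ± 0.85 CPM).

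Pearson's r of log2(CPM + 0.5) over the 13 group means describes which genes had like patterns; the means share libraries and batches. Gch1 and Cyb561 had r of 0.82 with each other, Ddc and Gch1 -0.76, and Dbh and Gch1 -0.02. Among 9895 other genes with a mean of at least 5 CPM, those most like Ddc included Hsd17b4 (0.92) and Tmem38b (0.92). For Dbh they were Tubgcp5 (0.91), Zbtb2 (0.91) and Hdhd2 (0.86), for Gch1 Rin1 (0.97), Ptprn (0.94) and Vgf (0.94), and for Cyb561 Aplp1 (0.98), Kif5a (0.97) and Fbxl16 (0.97). Maoa was most like Dld (0.96), Eif2ak1 (0.95) and Haus2 (0.95), and Slc18a1 had no gene above 0.71.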

How the data were processed

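Poly(A) RNA-seq of 28 mouse CAD cell libraries was analysed, and 6 small RNA libraries were not used here. The deposited values are raw counts of reads for each gene, and the submitters' processing notes name STAR and mm9. The sources used here give no tool version or gene annotation. The counts on the gene's own strand were used, and CPM were computed per 1000000 assigned reads after TMM scaling within each experiment. Of 37310 identifiers 87.4% matched a symbol. Labels gave the groups.

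Each experiment was fitted with edgeR 4.0.16 in R 4.3.3 (all its groups, filterByExpr with minimum count 10 and minimum total 15, TMM), and 16 comparisons, 3 of them interactions, were tested (quasi-likelihood test, two-sided, with p-values adjusted by Benjamini-Hochberg across every gene tested, threshold 0.05). The SE of a log2 fold change is its size divided by the square root of F. Fits were tested on simulated data. Bounds use 3 counts over a group, and ratios an exact 95% counting interval, which cover counting error only. Multimapping reads, not counted, were 6.77 to 7.95% in the first 2 experiments and 16.4 to 18.5% in the third.

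Members and lists were chosen with earlier results of these data known. Named genes were the 9 members, at most 4 genes per list and comparison by lowest adjusted p, and the 3 genes most like each member with a mean of at least 1 CPM. Some genes that this rule covers are not reported here. Lists covered tetrahydrobiopterin, breakdown, other transporters, other synthesis, ascorbate and copper supply, receptors and noradrenergic transcription factors. Results were recomputed without the low-count filter, without strand, with RLE scaling, with DESeq2 1.42.0, with a block for replicate number, on the compared libraries alone and leaving out each library. Figures were drawn with matplotlib 3.10.9. Promoter and miRNA sequences are RefSeq's.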

Additional observations from a re-analysis of the deposited data

Results flagged for a closer look

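Several effects differed between conditions by an interaction test. Between DKO-labelled and WT cells the change after 1 day without serum differed on the log2 scale by 1.11 for Dbh, -0.69 for Cyb561 and -0.80 for Slc18a1. For Th the fitted difference was 7.39, which depends on the prior count since Th had 0 reads in DKO-labelled cells in serum, so it is no measure of size. Of these, the Slc18a1 difference was lost under 6 of the settings that leave out a library, with DESeq2 and with unstranded counts. The Dbh difference was lost without the second WT serum library or the first DKO-labelled 1-day library.

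The effect of the miR-138 mimic against pUC19 differed between 2 days without serum and serum by 2.16 for Ddc. The effect of the miR-137 mimic differed by -1.20 for Dbh, -1.19 for Ddc, 0.64 for Slc18a1 and 0.64 for Gch1. The Ddc call held under 4 of 14 settings and the Slc18a1 call under 7 of 14, where Slc18a1 was lost with DESeq2 (adjusted p = 0.0892) and without 6 of the libraries in turn (adjusted p = 0.0535 to 0.18). The Dbh call was lost without any of 4 libraries (adjusted p = 0.074 to 0.211) and with DESeq2 (adjusted p = 0.0612).

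Reads on the strand opposite to Slc18a2, outside the counts used for the tests, reached 202 in a library and were at least 36 in each, against at most 5 on the gene's own strand.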

How the results depend on the processing

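The 112 member results were recomputed under each alternative that gave a value, and all 112 kept their call with RLE scaling. With DESeq2 8 calls were lost and 1 with the compared libraries alone. Without a low-count filter 2 were gained and 2 lost, and with unstranded counts 3 were lost. With the replicate number as a block 3 were gained and 2 lost; the labels do not say that numbers pair libraries, and same-numbered libraries of the second experiment had r of -0.07, 0.039 and 0.035. With 2 libraries a group, r between groups was 0.051 to 0.154 in the first experiment and -0.291 to 0.246 in the third. For the change of the miR-138 effect with day, 2 members were called with the replicate block and 2 without the low-count filter, against 1. For that of the miR-137 effect DESeq2 called 1, against 4. The ranges of members and genes called that follow cover only the fits that leave a library out. The members called with all libraries are given above. Leaving out a library gave 65 lost and 10 gained calls, and 20 changes of sign, all for members not called. Members called ranged between 2 and 4 for genotype at 1 day, 2 and 4 for 1 day in WT cells, 2 and 5 for the genotype difference in that response, 1 and 4 for the miR-138 mimic in serum, 3 and 5 for pUC19 at 2 days, 1 and 2 for the change of the miR-138 effect and 1 and 3 for that of the miR-137 effect. Genes called ranged between 615 and 2602 for the genotype difference (1325 with all libraries) and between 1730 and 2764 for pUC19 against no named transfection (3321). Log2 values that changed sign ranged between -0.041 and 0.077 for Gch1 at 1 day in WT cells and between -0.17 and 0.75 for Ddc in the genotype difference. With the miR-138 mimic against pUC19 they were -3.24 to 0.27 for Th in serum, and -0.29 to 0.42 for Dbh and -0.17 to 0.005 for Gch1 at 2 days. With the miR-137 mimic in serum they were -3.31 to 0.043 for Th, -0.205 to 0.041 for Gch1 and -0.10 to 0.17 for Maoa. Between mimics in serum they were -2.46 to 2.65 for Th and -0.24 to 0.00 for Gch1. For pUC19 at 2 days against serum Dbh gave -0.093 to 0.61. For the change of the miR-138 effect Cyb561 gave -0.024 to 0.23, and for that of the miR-137 effect Th gave -0.95 to 2.41 and Maoa -0.25 to 0.005. Where a group was left with 1 library, its spread was taken from the rest of the experiment, and the cause of each change was not tested. At a few reads per library, Th, Slc18a2 and low Ddc groups are limited by depth.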
